A study of Mus musculus with 8 samples.

Results

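The genes described here are 9 transcription factors of endoderm and intestinal identity: Sox17, Foxa1, Foxa2, Prox1, Cdx1, Cdx2, Gata4, Gata6 and Hnf4a. They were taken by name from the array annotation, with all their probe sets, and make up 9 of 12393 measured genes and 16 of 22690 probe sets. RNA came from mouse intestinal epithelial cells (IEC), and the strain was C57BL/6 x 129Sv x FVB, mixed. All groups, WT included, received tamoxifen by gavage on 5 days, with collection 15 days after it began. There were 4 genotypes with 2 arrays each: β-catc.a./IkkαAA/AA (double mutants), β-catc.a. (bCATca), IkkαAA/AA (IKKa-AA) and wild type (WT). In bCATca mice and in double mutants tamoxifen stabilises β-catenin in the intestinal epithelium, and the AA allele alters IKKα, a kinase of the NF-κB pathway. The labels name neither the Cre driver nor the gut segment, and give no sex. Nor do they say whether the 2 arrays of a group came from separate animals, so p-values measure the spread between arrays, which may be technical in the double mutant, bCATca and IKKa-AA groups. The WT arrays differed in transcripts of the sex chromosomes, as given with the values of the whole series.

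These factors act at different stages of gut development. SOX17 directs the formation of definitive endoderm in the embryo and is also found in arterial endothelium, and FOXA1 and FOXA2 are pioneer factors that open chromatin in endoderm-derived tissues. CDX1 and CDX2 are homeobox factors that hold the intestinal fate, GATA4 and GATA6 set regional gene expression along the small intestine, and the nuclear receptor HNF4A drives enterocyte genes. PROX1 is a homeobox factor of lymphatic endothelium and enteroendocrine cells, and a known Wnt target in intestinal tumours.

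Of the 9 factors, 3 rose and 0 fell in bCATca against WT: Sox17, Foxa1 and Prox1. Over all genes 9.29% were called in that comparison, 5.74% higher and 3.55% lower, at a limma adjusted p under 0.05 over 12393 genes. Cdx1, Cdx2, Gata4, Gata6 and Hnf4a did not pass in any comparison, and neither did Foxa2. In double mutants Sox17 stood between bCATca and WT and differed from both. The median change of the 9 factors in bCATca was 0.17 on the log2 scale, against 0.01 for all genes. Each difference is that of mean log2 intensities, SE is its standard error in limma, and each group has n = 2 arrays. Bulk arrays cannot tell fewer cells of a type from less RNA per cell.

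**Figure D1:**
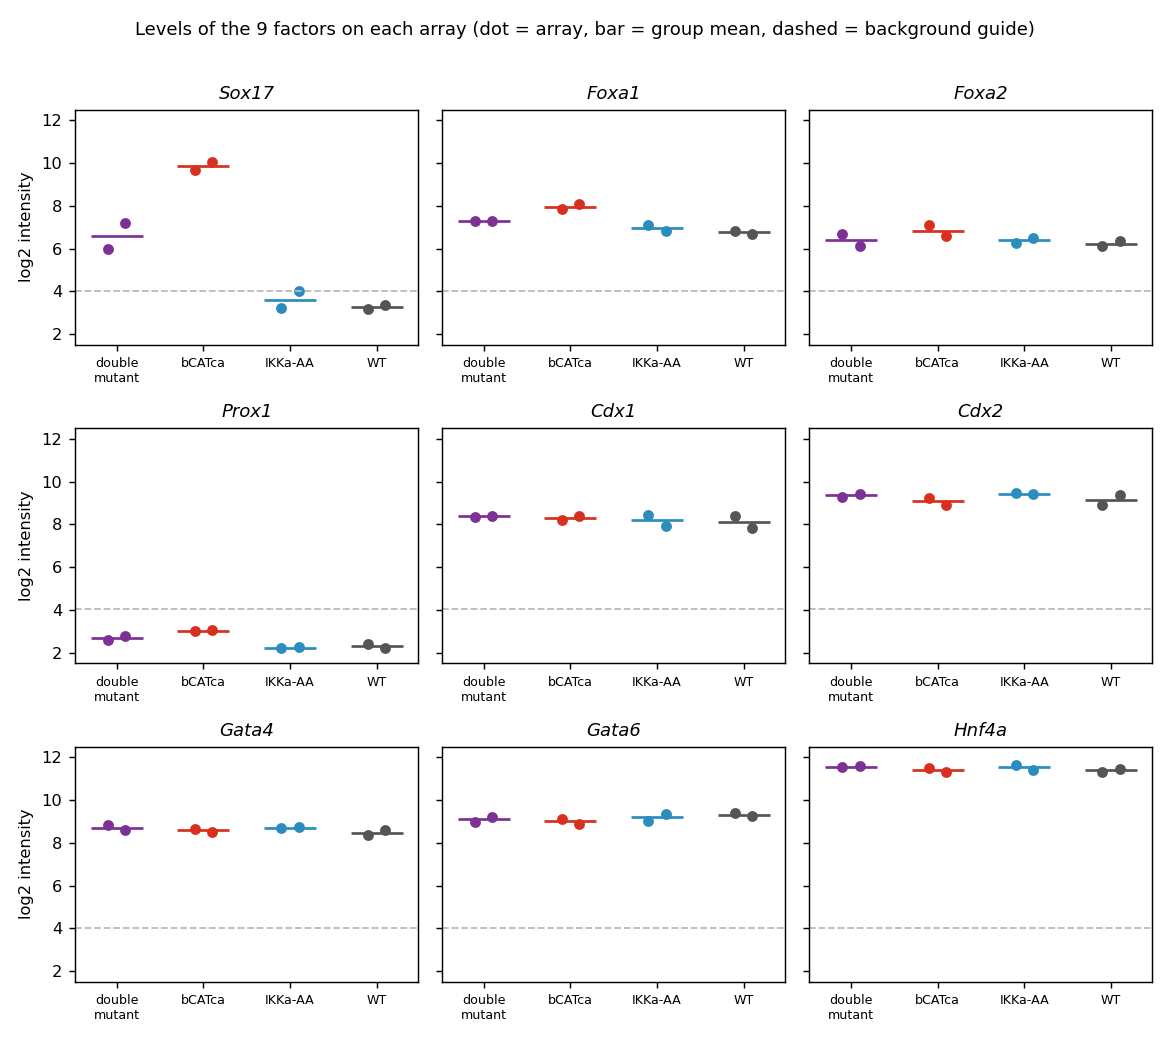
Log2 intensity of the 9 factors on each of the 8 arrays, with double mutants, bCATca, IKKa-AA and WT from left to right. Each dot is an array, each bar a group mean, and the dashed line at 4.03 a rough guide to background. Sox17 stands apart in bCATca and double mutants, Foxa1 is highest in bCATca, Prox1 lies under the line in every group, and the other panels are near level.

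Some values of the whole series bear on these readings. WT replicate 1 stood apart in transcripts of the sex chromosomes. Xist, the X-inactivation transcript, read 9.18 there and 4.01 on WT replicate 2, and the Y-linked gene Eif2s3y read 2.02 and 7.56. The other 6 arrays were like WT replicate 2, so WT replicate 1 carries the pattern of a female and the remaining 7 arrays that of males, and the WT arrays are not repeats of 1 animal. Without WT replicate 1, bCATca differed from WT by 6.50 for Sox17 (adjusted p = 0.00458, limma), 1.27 for Foxa1 (0.0318) and 0.81 for Prox1 (0.0736). Double mutants then differed from WT by 3.22 for Sox17 (adjusted p = 0.119, limma), and the interaction of Sox17 was -3.52 (0.182). With 1 array left in WT, its spread is assumed to be like that of the other groups. Xist read at most 4.03 on the 7 arrays where it was low, and group means up to that level are called near background. Of 16 retina, lens, sperm, brain and other tissue-restricted genes, 68.8% of group means lay at or below it, so the line is a rough guide. Epithelial markers were high on all arrays: the summed intensity of 9 markers, among them Epcam and Cdh1, was 40768 to 42021 in double mutants, 41598 to 42344 in bCATca, 38977 to 43004 in IKKa-AA and 38182 to 40320 in WT. The IKKa-AA arrays were the least alike, with an SD of the replicate difference over genes of 0.43, against 0.29 in WT. The control probe set for the 3′ part of 18S ribosomal RNA read 11.77 and 12.07 in the double mutants, 11.97 and 12.15 in bCATca, 12.39 and 12.35 in IKKa-AA, and 11.31 and 11.69 in WT. It was thus lowest in WT, and its part in the comparisons against WT was not tested.

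Sox17 lies on chromosome 1 (4490928 to 4497426, RefSeq, GRCm38.p6) and is read by a pair of probe sets. The one with the higher mean, 1429177_x_at, read 5.96 and 7.20 in the double mutants, 9.65 and 10.05 in bCATca, 3.20 and 4.02 in IKKa-AA, and 3.19 and 3.36 in WT. Both bCATca arrays lay above both double mutant arrays, which lay above all 4 arrays without stabilised β-catenin. IKKa-AA and WT overlapped and were near background. The suffix of this probe set marks probes that can also bind other transcripts. The second probe set, 1421657_a_at, read 5.47 and 6.26 in the double mutants, 8.38 and 8.97 in bCATca, 4.13 and 3.80 in IKKa-AA, and 3.74 and 3.92 in WT. It gave the same order of bCATca, double mutants and the remaining arrays.

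In bCATca against WT the reading of Sox17 was 6.58 higher (SE 0.40, 95% interval 5.67 to 7.49, adjusted p = 0.000163 from limma). Only 1 of the 12393 genes had a larger increase. As a ratio of readings this is 95.7-fold, and since the WT reading was near background, the size of the true ratio was not determined. The second probe set rose by 4.84 (SE 0.29, adjusted p = 0.000173 in the limma fit of all 22690 probe sets), so both probe sets passed and differed in size. In that fit 7.31% of all probe sets passed. The call held in all 8 fits that left out 1 array, with changes of 6.38 to 6.78. Sox17 was listed here with this rise already known, and its p-value describes the fit and is no independent evidence.

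Between double mutants and bCATca, 1 of the 9 factors fell and 0 rose, against 0.807% of all genes called lower, 0.403% called higher and 1.21% in either direction. The factor was Sox17, which fell by 3.27 (SE 0.40, adjusted p = 0.0153 from limma), a reading 9.66-fold lower. The second probe set fell by 2.81 (SE 0.29, adjusted p = 0.00972 in limma, where 0.732% of all probe sets passed). The call ended without bCATca replicate 1 (adjusted p = 0.0623), without bCATca replicate 2 (0.108) and without double mutant replicate 1 (0.0726), each with limma and with the remaining array of that group assumed to vary like the other groups. Compared with WT, in double mutants 1 of the 9 factors rose and 0 fell, against 0.984% of all genes called higher, 0.46% called lower and 1.44% in either direction. There Sox17 rose by 3.31 (SE 0.40, adjusted p = 0.0169 from limma), and the call ended without WT replicate 1 (0.119), without WT replicate 2 (0.0941) and without double mutant replicate 2 (0.0822). No fold is given, since the WT reading was near background. The second probe set rose by 2.03 (adjusted p = 0.0268 in limma, where 0.851% of all probe sets passed). These comparisons share the bCATca or the WT arrays with the first one.

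Of the 9 factors, 0 passed in limma between double mutants and IKKa-AA, 2 of them had an unadjusted p under 0.05, and of all genes 0.0565% passed and 6.93% had such an unadjusted p. Sox17 differed by 2.97 (SE 0.40, 95% interval 2.06 to 3.89, adjusted p = 0.083), and by 1.90 in the second probe set (adjusted p = 0.135 in limma, where 0.0529% of all probe sets passed). Without IKKa-AA replicate 1 the difference passed (adjusted p = 0.025 from limma). The interaction subtracts the difference between bCATca and WT from the difference between double mutants and IKKa-AA. For Sox17 it was -3.61 (SE 0.56, 95% interval -4.90 to -2.31, adjusted p = 0.0537 from limma), just outside the threshold. It passed without IKKa-AA replicate 1 (0.0261), without IKKa-AA replicate 2 (0.0307) and without double mutant replicate 2 (0.0327). In the second probe set the interaction was -2.94 (SE 0.41, adjusted p = 0.0433 in limma, where 0.264% of all probe sets passed), just inside the threshold. In both probe sets the IKKa-AA and WT readings were near background, so the true size of the interaction was not determined. In the limma fit of genes 0 of the 9 factors passed for the interaction and 2 had an unadjusted p under 0.05, against 0.0888% and 15.7% of all genes.

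**Figure D2:**
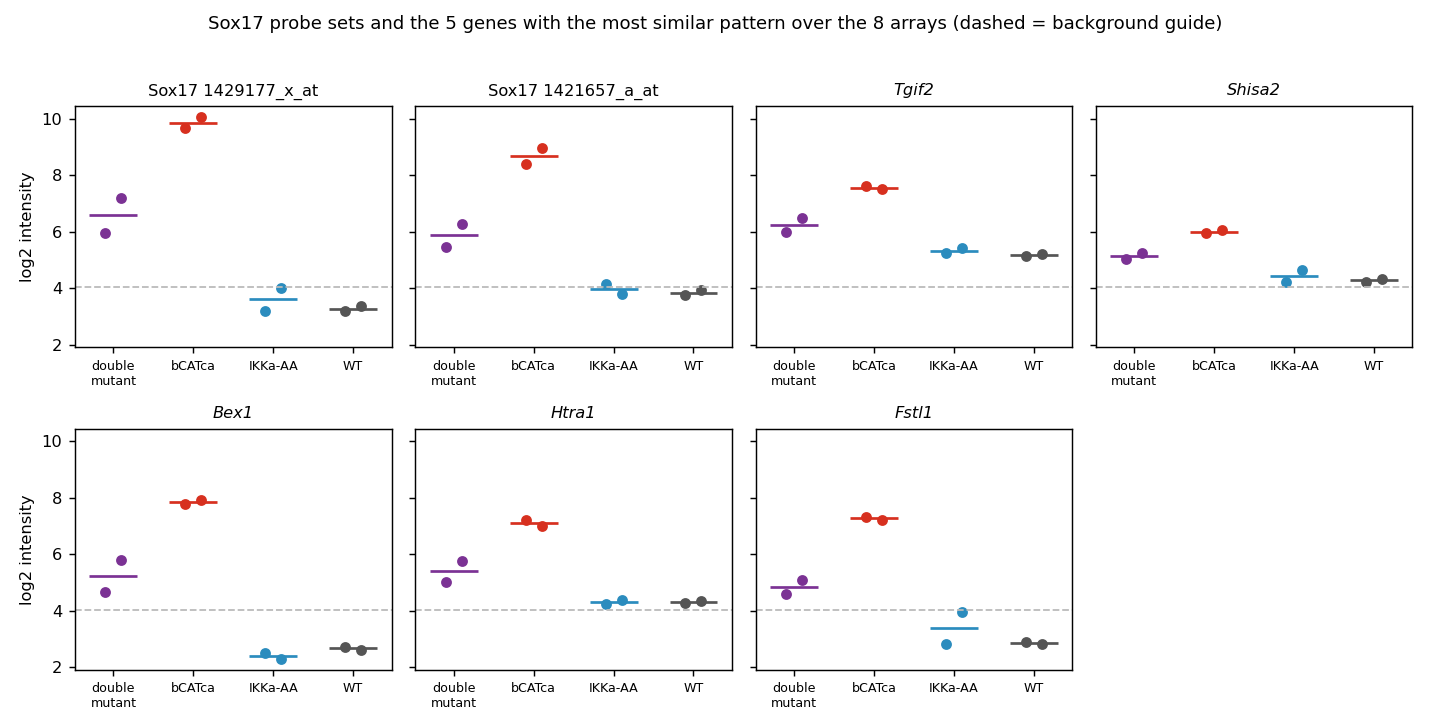
Log2 intensity of both Sox17 probe sets and of the 5 genes with the highest Pearson r to Sox17 over the 8 arrays, with double mutants, bCATca, IKKa-AA and WT from left to right. Dots are arrays, bars are group means and the dashed line at 4.03 is the background guide. In each panel bCATca is highest, double mutants follow, and IKKa-AA and WT are lowest.

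The 5 genes closest to Sox17 over the 8 arrays were sought among 2185 genes whose values spanned at least 1 on the log2 scale. Pearson's r was 0.996 for Tgif2, a homeobox repressor of TGF-β signalling, and 0.995 for Shisa2, an endoplasmic reticulum protein that holds back receptors of the FGF and Wnt pathways. It was 0.990 for Bex1, 0.988 for the secreted protease gene Htra1 and 0.988 for Fstl1, which encodes a secreted follistatin-like protein. Tgif2 read 6.00 and 6.47 in the double mutants, 7.60 and 7.51 in bCATca, 5.24 and 5.41 in IKKa-AA, and 5.14 and 5.19 in WT. Bex1 and Fstl1 were near background in IKKa-AA and WT. These coefficients describe 8 arrays that fall into 4 groups. Among the other 8 factors, r to Sox17 was 0.969 for Prox1, 0.943 for Foxa1 and 0.624 for Foxa2, and it lay between -0.588 for Gata6 and 0.267 for Cdx1 for the rest. Prox1 was near background in all groups and spanned only 0.84, less than the span of 1 asked of the genes above.

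Sox17 is also expressed by endothelial cells, so their markers were read on the same arrays. Pecam1, which defines endothelium, read 3.18 and 3.01 in the double mutants, 3.02 and 2.72 in bCATca, 2.76 and 3.21 in IKKa-AA, and 2.83 and 2.94 in WT, near background on every array. The summed intensity of 17 blood endothelial markers was 429 to 501 in double mutants, 479 to 489 in bCATca, 402 to 428 in IKKa-AA and 494 to 519 in WT. The sum in bCATca did not exceed that in WT. Of the 17, 1 rose, Vwf, by 1.03 to a level near background, against 5.74% of all genes called higher. Group means of 8 of the 17 in bCATca and of 9 in WT were near background, which limits this reading. The part of endothelial cells in the change of Sox17 was not tested. Cdh5 and Kdr differed by -0.07 (adjusted p = 0.803, limma) and -0.30 (adjusted p = 0.236). Sox7 and Sox18, the remaining members of the Sox17 subfamily, differed by -0.30 (adjusted p = 0.167) and -0.18 (adjusted p = 0.661), and both were near background in these groups.

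Of 13 markers of stroma and muscle, 1 rose (Vim) and 2 fell (Des, Tagln) in bCATca against WT, with a median change of -0.02. Of all genes 5.74% were called higher and 3.55% lower. The summed intensity of the 13 markers was 343 to 363 in double mutants, 436 to 495 in bCATca, 341 to 389 in IKKa-AA and 363 to 445 in WT. Their part in the change of Sox17 was not tested.

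Foxa1 is read by a single probe set. It read 7.31 and 7.28 in the double mutants, 7.83 and 8.06 in bCATca, 7.11 and 6.81 in IKKa-AA, and 6.84 and 6.67 in WT. The bCATca arrays were the highest, the double mutant arrays came next without overlap, and IKKa-AA and WT overlapped. In bCATca against WT Foxa1 rose by 1.19 (SE 0.16, adjusted p = 0.00478 from limma), which is 2.28-fold with a 95% interval of 1.77 to 2.95. The change lay between 1.07 and 1.31 when 1 array was left out, and without WT replicate 2 it missed the threshold (adjusted p = 0.0513).

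In double mutants Foxa1 did not pass in any comparison. The difference from bCATca was -0.65 (SE 0.16, 95% interval -1.02 to -0.28, adjusted p = 0.103, limma). Against WT the double mutants differed by 0.54 (SE 0.16, adjusted p = 0.143), against IKKa-AA by 0.33 (adjusted p = 0.762), and the interaction was -0.86 (SE 0.23, adjusted p = 0.164). The genes closest to Foxa1 over the 8 arrays were Ppat, an enzyme of purine synthesis (r = 0.992), Lgmn, a lysosomal protease (r = 0.987), and Prkci, an atypical protein kinase C (r = 0.987).

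The bases before the RefSeq start site are shown for Foxa1, which rose, and for Cdx2, which did not pass in any comparison, since these are the members with a single start site in the RefSeq promoter table (GRCm38.p6). The windows are chr12:57546112-57546361 for Foxa1, inside the RefSeq bounds of the gene (57540628 to 57548029), and chr5:147307250-147307499 for Cdx2. Both are read on the minus strand, 5′ to 3′, with the last base next to the start site. Capitals mark matches to a FOX motif (TGTTTNC) or a TCF/LEF motif (CTTTGNT) on either strand, and TCF/LEF factors are the DNA-binding partners of β-catenin.
Foxa1: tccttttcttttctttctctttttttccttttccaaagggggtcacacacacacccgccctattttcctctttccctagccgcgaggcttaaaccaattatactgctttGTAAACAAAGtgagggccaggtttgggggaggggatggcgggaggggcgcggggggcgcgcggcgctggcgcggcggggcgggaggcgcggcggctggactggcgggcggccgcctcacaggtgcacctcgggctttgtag
Cdx2: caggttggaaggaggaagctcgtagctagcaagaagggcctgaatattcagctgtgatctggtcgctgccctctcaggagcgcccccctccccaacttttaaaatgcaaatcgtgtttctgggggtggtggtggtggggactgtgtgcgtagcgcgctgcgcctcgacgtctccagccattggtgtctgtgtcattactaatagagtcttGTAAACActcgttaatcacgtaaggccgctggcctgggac

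In the Foxa1 window a FOX match begins at base -141 and a TCF/LEF match at base -138, both on the opposite strand, and they overlap. The Cdx2 window holds a FOX match at base -40 and no TCF/LEF match. Of 32851 windows of the same length in the table, 17.8% hold the FOX motif and 16.0% the TCF/LEF motif. The table gave 9 windows for 5 of the 9 factors (Foxa1, Foxa2, Prox1, Cdx2, Hnf4a). The FOX motif was in 4 of these 9 windows and the TCF/LEF motif in 1. A GATA motif (AGATAA) was in 2 and a CDX motif (TTTATNG) in 0, against 9.99% and 9.81% of all windows. A match describes letters in a window and not a bound site.

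Foxa2, the close relative of Foxa1, read 6.68 and 6.12 in the double mutants, 7.10 and 6.58 in bCATca, 6.25 and 6.50 in IKKa-AA, and 6.12 and 6.35 in WT. The bCATca arrays lay above the WT arrays, yet replicates of a group differed by up to 0.56, close to the range of the group means (0.60). The difference between bCATca and WT was 0.60 (SE 0.24, 95% interval 0.05 to 1.16, adjusted p = 0.139, limma) and did not pass. Foxa3, the third FOXA gene and no member of the list, rose by 1.26 in bCATca (SE 0.15, adjusted p = 0.00327 from limma), with 8.05 and 8.18 in bCATca against 6.98 and 6.72 in WT.

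Prox1 is read by a single probe set and lay near background in all groups. It read 2.58 and 2.79 in the double mutants, 3.02 and 3.03 in bCATca, 2.20 and 2.24 in IKKa-AA, and 2.42 and 2.22 in WT. In bCATca against WT it rose by 0.70 (SE 0.14, adjusted p = 0.0231 from limma), and the call ended when either WT or either bCATca array was left out (highest adjusted p = 0.161). The change is one of readings at the level of genes taken as silent, so no fold is given. The genes closest to Prox1 over the 8 arrays were Bex1 (r = 0.984), Ifitm1 (r = 0.980) and the homeobox gene Msx1 (r = 0.973). Lymphatic endothelial markers, which mark another source of Prox1, gave 0 of 4 measured genes called in bCATca against WT, where 9.29% of all genes were called. Their summed intensity was 73.6 to 88.3 in bCATca against 78.9 to 90.7 in WT, and their part in the change of Prox1 was not tested.

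Enteroendocrine cells express Prox1 and FOXA genes. Of their 20 measured markers, 2 rose and 6 fell in bCATca against WT, against 5.74% and 3.55% of all genes. The hormone genes Gcg and Nts fell by 2.32 (SE 0.22, adjusted p = 0.00114 from limma) and 1.97 (SE 0.23), and the homeobox gene Isl1 fell by 1.59 (SE 0.16). Chga, which encodes the granule protein chromogranin A, rose by 1.30 (adjusted p = 0.0145), while Chgb and Neurod1 differed by 0.81 (adjusted p = 0.0835) and -0.22 (adjusted p = 0.602). Summed over the list, intensity was 3020 to 3390 in bCATca against 4435 to 5006 in WT. It was 3078 to 3674 in double mutants and 3184 to 4953 in IKKa-AA, where the lower array lay inside the bCATca range. The part of these markers in the changes of Foxa1 and Prox1 was not tested.

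**Figure D3:**
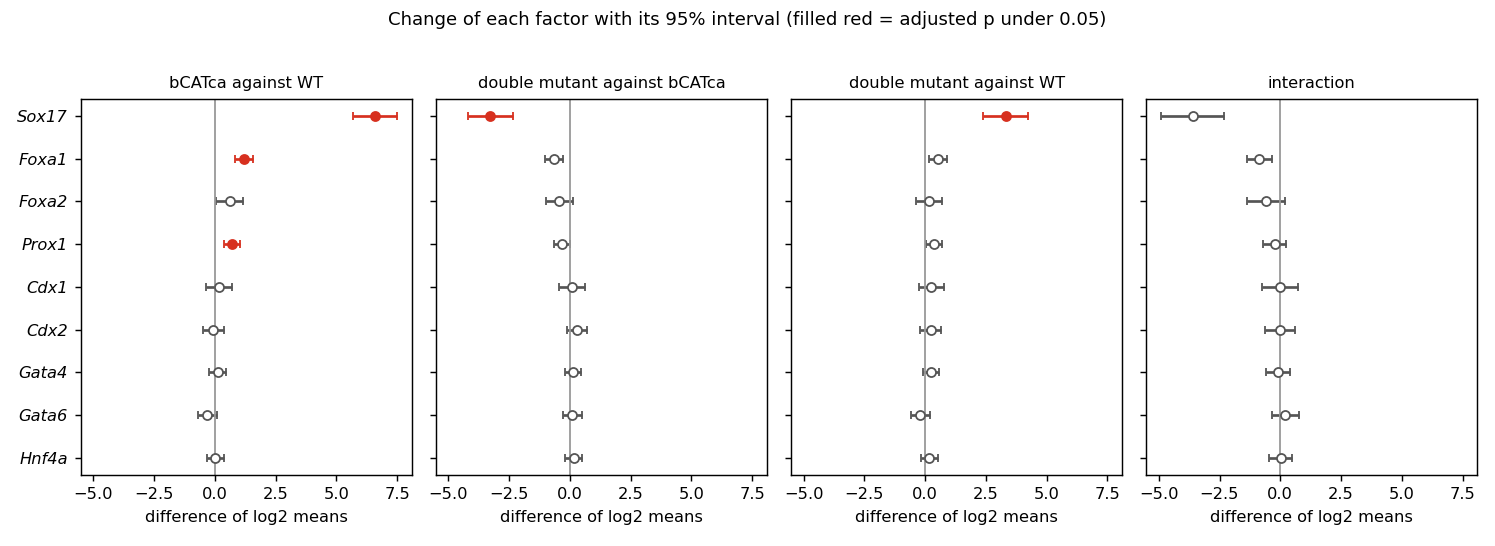
Difference of log2 group means for each factor for 3 pairs of genotypes and for the interaction, with 95% intervals from the limma fit. Filled red points passed at an adjusted p under 0.05. Sox17 passes in the first 3 panels and Foxa1 and Prox1 in the first. The intervals of Cdx1, Cdx2, Gata4, Gata6 and Hnf4a include 0 in all panels.

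Cdx1 and Cdx2 were measured well above background. Cdx2 (1422075_at) read 9.29 and 9.43 in the double mutants, 9.23 and 8.91 in bCATca, 9.46 and 9.42 in IKKa-AA, and 8.91 and 9.36 in WT. The WT replicates differed by 0.45, more than the range of the group means (0.36). The difference between bCATca and WT was -0.07 (95% interval -0.50 to 0.36, adjusted p = 0.842, limma), which is 0.955-fold with an interval of 0.709 to 1.29. The second Cdx2 probe set, 1422074_at, gave -0.14. Its widest replicate gap (0.52) was smaller than the range of its group means (0.60). It differed by 0.46 in IKKa-AA against WT (adjusted p = 0.453 over all probe sets, limma). In double mutants against bCATca it differed by 0.44 (adjusted p = 0.443, limma). Cdx1 read 8.36 and 8.38 in the double mutants, 8.21 and 8.37 in bCATca, 8.45 and 7.94 in IKKa-AA, and 8.40 and 7.84 in WT. As in Cdx2 probe set 1422075_at, WT replicates were further apart (0.56) than any group means (0.25). For Cdx1, bCATca differed from WT by 0.17 (95% interval -0.35 to 0.70, adjusted p = 0.645, limma).

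Gata4 (1418863_at) read 8.83 and 8.60 in the double mutants, 8.66 and 8.51 in bCATca, 8.68 and 8.74 in IKKa-AA, and 8.37 and 8.58 in WT. Gata6 (1425464_at) read 8.99 and 9.23 in the double mutants, 9.11 and 8.90 in bCATca, 9.04 and 9.37 in IKKa-AA, and 9.37 and 9.25 in WT. For Gata4 the IKKa-AA arrays lay above the bCATca and the WT arrays, and for Gata6 the WT arrays lay above the double mutant and the bCATca arrays. Such separation was common with 2 arrays a group: bCATca and WT did not overlap for 63.3% of all genes. The share was not counted for the other pairs, and neither gene passed in any comparison. The difference between bCATca and WT was 0.11 for Gata4 (95% interval -0.23 to 0.46, adjusted p = 0.646, limma) and -0.31 for Gata6 (95% interval -0.69 to 0.08, adjusted p = 0.262). The second probe set of Gata4, 1418864_at, gave -0.01 and that of Gata6 -0.39. In IKKa-AA against WT the same Gata4 probe set differed by 0.63 (95% interval 0.17 to 1.10, unadjusted p = 0.0135, adjusted p = 0.329 over all probe sets, limma), and the arrays of these groups did not overlap.

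Hnf4a has 4 probe sets. The brightest, 1427001_s_at, read 11.54 and 11.58 in the double mutants, 11.52 and 11.30 in bCATca, 11.66 and 11.41 in IKKa-AA, and 11.33 and 11.45 in WT. Groups next to each other in order of means overlapped, while the double mutant arrays lay above the bCATca and the WT arrays. The share of all genes that separate in this way was not counted for these pairs. The difference of bCATca from WT was 0.02 (95% interval -0.33 to 0.36, adjusted p = 0.951, limma), an interval of 0.796-fold to 1.29-fold. The other 3 probe sets gave -0.15, -0.27 and -0.37, none of which passed over all probe sets, so the sign of the difference depends on the probe set. Hnf4g, the paralogue that acts beside Hnf4a in enterocytes, fell by 1.03 (SE 0.23, adjusted p = 0.0311 from limma), with 7.17 and 6.69 in bCATca against 7.80 and 8.12 in WT.

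For the 6 factors that passed in no comparison, the smallest adjusted p was 0.139 over genes and 0.153 over probe sets, with 12 probe sets read. In 4 of the 6 the widest gap between replicates of a group exceeded the range of the group means, with the probe set that stands for each gene. For Cdx2 and Hnf4a this depended on the probe set. The gap was 0.52 against a range of 0.60 in 1422074_at (Cdx2), and 0.25 against 0.45 in 1427000_at (Hnf4a). These arrays leave room for changes inside the intervals given, so they do not show that the levels were equal. Arrays of bCATca and WT did not overlap for 5 of the 9 factors, against 63.3% of all genes. In IKKa-AA against WT, 0 of the 9 passed and 0 had an unadjusted p under 0.05 with the probe set that stands for each gene, unlike the second probe set of Gata4, and of all genes 0.00807% passed in limma (0.0309% of probe sets) and 11.7% had such an unadjusted p. There Sox17 differed by 0.33 (SE 0.40, adjusted p = 0.744), Foxa1 by 0.20 (adjusted p = 0.618) and Cdx2 by 0.30 (adjusted p = 0.542).

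**Figure D4:**
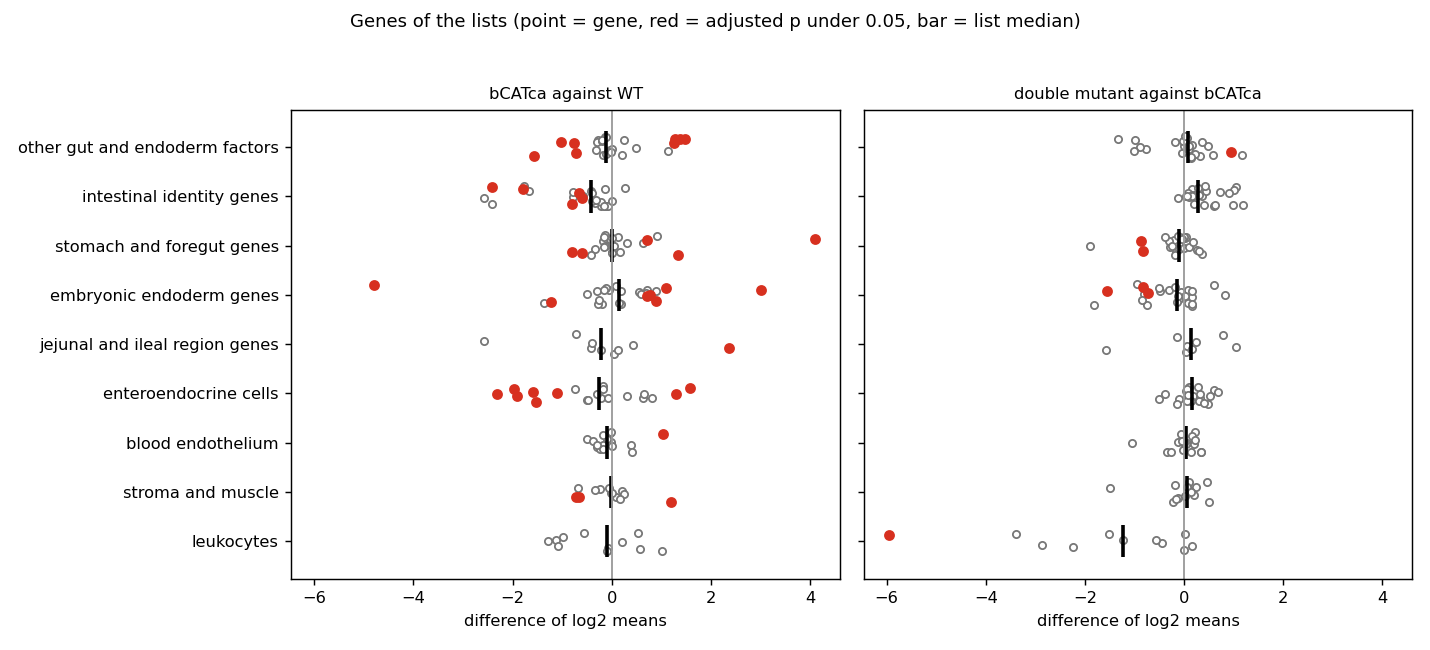
Difference of log2 group means for each measured gene of 9 lists, in bCATca against WT on the left and double mutants against bCATca on the right. Points are genes, red points passed at an adjusted p under 0.05, and bars are list medians. Intestinal identity genes lie mostly below 0 on the left, with a median of -0.41.

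Genes downstream of or beside these factors were read from lists chosen with earlier results of these data known, and up to 3 genes with the smallest p are named for each, with further names added after their values were seen where a count was short. Of 24 other gut and endoderm factors, 4 rose and 4 fell in bCATca against WT, with a median change of -0.11 and 9.29% of all genes called. Foxa3, Sox4 (by 1.47) and Ascl2, a factor of crypt stem cells (by 1.37), rose, as did Hhex. Hnf4g, Osr2, Nr5a2 (by 0.72) and Creb3l3 fell. In double mutants against bCATca 1 of the 24 rose, Nr5a2, by 0.94 (adjusted p = 0.0382, limma), and 0 fell. Of all genes 0.403% were called higher there and 0.807% lower.

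Of 26 measured genes of intestinal identity, targets of CDX2, HNF4A or GATA factors, 5 fell and 0 rose in bCATca against WT. Of all genes 3.55% were called lower and 5.74% higher. The peptide transporter gene Slc15a1 fell by 1.79 (SE 0.28, adjusted p = 0.00942 from limma), the apolipoprotein gene Apoc3 by 2.41 (SE 0.43) and the peptidase gene Dpp4 by 0.81 (SE 0.15), along with Fabp2 and Mttp. The median change of the list was -0.41. The summed intensity of the 26 genes was 111287 to 122280 in double mutants, 85363 to 108139 in bCATca, 113948 to 132143 in IKKa-AA and 136623 to 138236 in WT. In double mutants against bCATca 0 of the 26 passed, with a median of 0.28, against 1.21% of all genes called there. Anpep had the smallest p, with a difference of 0.91 (adjusted p = 0.0894, limma).

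Of 23 stomach and foregut genes, 3 rose and 2 fell in bCATca against WT, with a median of 0.01. Of all genes 5.74% were called higher and 3.55% lower. Anxa10, an annexin of stomach epithelium, rose by 4.10 (SE 0.70, adjusted p = 0.0125 from limma), Krt7 by 1.34 and Atp4a, a subunit of the gastric proton pump, by 0.71. Capn9 and Sprr3 fell, and Sprr3 was near background in both groups. Atp4a read 4.34 in WT and 5.06 in bCATca, not far above the background guide. Anxa10 read 9.06 and 7.82 in bCATca against 4.07 and 4.61 in WT. Gkn1 and Sox2, also of the list, differed by 0.13 (adjusted p = 0.628) and 0.01 (adjusted p = 0.966). Krt7 fell by 0.87 and Atp4a by 0.82 in double mutants against bCATca. They were the 2 genes of the list that passed there, against 0.807% of all genes called lower.

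Of 25 genes of embryonic endoderm, 5 rose and 2 fell in bCATca against WT, with a median of 0.14. Of all genes 5.74% were called higher and 3.55% lower. Gpc3, a glypican of fetal tissues, rose by 3.02 (SE 0.54, adjusted p = 0.0148 from limma) and Amot by 0.76. The basement membrane collagen gene Col4a1 rose by 0.72, as did Cxcr4 and Cpn1 by other amounts. Cxcr4 was near background in both groups (2.34 in WT, 3.23 in bCATca). Col4a1 read 4.10 in WT and 4.82 in bCATca, not far above the background guide. The vitamin B12 receptor genes Cubn and Amn fell by 4.80 and 1.23, and both also serve enterocytes. In IKKa-AA against WT, without stabilised β-catenin, Cubn differed by -4.50 (adjusted p = 0.306, limma) and Amn by -0.34 (adjusted p = 0.633). The IKKa-AA arrays read 3.83 and 7.57 for Cubn. Cer1 and Lama1, further endoderm genes, stayed near background with differences of 0.18 (adjusted p = 0.449) and 0.19 (adjusted p = 0.394). In double mutants against bCATca 3 fell and 0 rose, against 0.807% and 0.403% of all genes. Emb fell by 1.56, Amot by 0.83 and Col4a1 by 0.73. Of 9 regional enterocyte genes, 1 rose in bCATca against WT, the iron reductase gene Cybrd1, by 2.36 (adjusted p = 0.021, limma). In double mutants against bCATca 0 of these passed, against 1.21% of all genes, and Cybrd1 differed by -1.57 (adjusted p = 0.162, limma).

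Leukocyte markers were low on both double mutant arrays. The summed intensity of 11 leukocyte markers was 530 to 594 in double mutants, 3852 to 4961 in bCATca, 920 to 5536 in IKKa-AA and 3655 to 3794 in WT, and Igha fell by 5.96 in double mutants against bCATca. Ptprc, the common leukocyte antigen, read 5.89 and 5.86 in double mutants, against 8.28 and 7.95 in bCATca and 9.39 and 9.08 in WT. Of 6 pancreatic acinar markers 0 passed in any comparison, against 0.00807% to 9.29% of all genes, depending on the comparison. Their median difference between double mutants and bCATca was 0.88. Their sum was 780 on double mutant replicate 1 and 227 on replicate 2, against 311 to 320 in bCATca, so it was high on 1 array only. The part of either marker list in the lower Sox17 reading of double mutants was not tested.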

How the data were processed

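The authors deposited 1 linear intensity per probe set and array, for 8 arrays. RMA and affy are named in the submitters' processing notes, and versions, settings and genome build are not given in the sources used here. Labelling used 200 ng of total RNA, per the labels' protocols. Median intensities were 50.9 to 53.8. Arrays carry no read depth, and their number limits the precision.

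Log2 was taken of each intensity. Of 22690 probe sets, 20380 had 1 gene symbol, 691 several and 1555 none in the platform annotation, and 64 were controls. Symbols were updated through Entrez IDs for 20351 and an accession for 1, and 28 kept theirs. The probe set with the highest mean stood for a gene (12393 genes). Limma 3.58.1 in R 4.3.3 (lmFit, 1 mean per group, eBayes) was fitted to all arrays, with 4 residual and 4.28 prior degrees of freedom and Benjamini-Hochberg adjustment over all genes. Member probe sets were read from the same fit on all probe sets. The fit was tested on simulated data. Members and lists were chosen with earlier results of these data known. All members were named, with up to 3 genes per list by smallest p (first the called ones), the first 3 measured markers of other cell types, and the genes with the highest Pearson r to Sox17 (5) or to another called member (3). Motif windows came from RefSeq. Alternatives covered normalization, probe set choice, a filter on dim genes, the prior, a replicate block, the arrays fitted and leaving out each array. Python 3.11.15, pandas 2.3.3, numpy 2.4.6, scipy 1.17.1 and matplotlib 3.10.9 were used.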

Additional observations from a re-analysis of the deposited data

Results flagged for a closer look

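In the fit of all probe sets, the change of Sox17 with stabilised β-catenin was smaller with the IKKα AA allele than without it for probe set 1421657_a_at, where the interaction passed. It was -2.94 (SE 0.41, adjusted p = 0.0433 from limma), with 1.90 between double mutants and IKKa-AA and 4.84 between bCATca and WT. Probe set 1429177_x_at gave 2.97 and 6.58 for the same differences and an interaction of -3.61 that did not pass (adjusted p = 0.0536 over all probe sets, limma). WT and IKKa-AA were near background in both probe sets (3.83 and 3.96 in 1421657_a_at), so the true size of these differences was not determined.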

How the results depend on the processing

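Member calls in bCATca against WT numbered 1 with dim genes left out, a filter that removes Sox17 and Prox1 (means below the median of all genes), and 0 in double mutants against bCATca and against WT. In IKKa-AA against WT, 1 gene passed, against 0 with dim genes left out, 4 with trend and robust eBayes and 0 with the compared arrays alone. In bCATca against WT 1151 genes passed, and among the alternatives other than leaving out an array, only the replicate block moved that count by over 1.5 times. Between double mutants and bCATca 150 genes passed, against 63 with dim genes left out and 331 with the compared arrays alone. Between double mutants and IKKa-AA 7 passed, against 1 with probe sets averaged, 0 with dim genes left out and 0 with the compared arrays alone. Between double mutants and WT 179 passed, against 816 with the compared arrays alone. For the interaction 11 passed, against 18 after quantile normalization, 45 with dim genes left out and 73 with trend and robust eBayes. Correlations of deviations between same-numbered arrays were -0.448 to 0.150, which gives no sign of pairing by number but cannot settle it. The lowest was between bCATca and IKKa-AA. With 2 arrays in a group, it means that arrays of opposite number in these groups deviated together. With a replicate block, genes called numbered 701 in bCATca against WT, 72 in double mutants against bCATca, 0 against IKKa-AA, 71 against WT and 6 for the interaction, where 1 member passed (Sox17, adjusted p = 0.0485, limma), and no other member call changed.

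Differences of uncalled members changed sign as follows. Hnf4a in bCATca against WT was -0.0128 after cyclic loess and -0.1951 with probe sets averaged. Cdx1 in IKKa-AA against WT was -0.0241 after quantile and -0.0326 after cyclic loess normalization. With probe sets averaged, Gata4 was -0.1774 and Hnf4a -0.2821 in double mutants against IKKa-AA. In the interaction, Cdx2 was 0.0493 after quantile and 0.0883 after cyclic loess, Gata4 0.012 after cyclic loess, and Hnf4a -0.0426 after quantile and -0.087 with probe sets averaged. The cause was not tested.

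Leaving out 1 array leaves a lone array that is assumed to vary like the others. Genes called then ranged from 223 to 1885 in bCATca against WT (members 1 to 3), 0 to 325 in IKKa-AA against WT, 11 to 395 in double mutants against bCATca (members 0 to 1), 0 to 159 against IKKa-AA (0 to 1), 7 to 661 against WT (0 to 1) and 0 to 234 for the interaction (0 to 1). Differences of uncalled members that spanned 0 were, in bCATca against WT, Cdx1 -0.1074 to 0.4557, Cdx2 -0.2925 to 0.1597 and Hnf4a -0.0937 to 0.1276. In IKKa-AA against WT they were Sox17 -0.0756 to 0.7429, Cdx1 -0.2078 to 0.3553 and Gata6 -0.2701 to 0.056. For double mutants against bCATca they were Cdx1 -0.0033 to 0.1576 and Gata6 -0.0193 to 0.2204. Against IKKa-AA they were Cdx1 -0.0793 to 0.4345, Gata4 -0.1034 to 0.1194, Gata6 -0.2615 to 0.0646, Hnf4a -0.0961 to 0.15 and Foxa2 -0.2635 to 0.3008. Against WT they were Cdx1 -0.0302 to 0.5329, Cdx2 -0.0043 to 0.4479 and Foxa2 -0.1201 to 0.4442. In the interaction they were Cdx1 -0.2781 to 0.285, Cdx2 -0.2362 to 0.216, Gata4 -0.2177 to 0.0051 and Hnf4a -0.1131 to 0.133. Of 432 such fits of single members 380 kept direction and call, as did 345 of 357 fits under the other alternatives. Signal near background limits Sox17 outside bCATca and double mutants, and Prox1 throughout.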
